A study of Mus musculus with 36 samples.

Results

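The regions described here were the 20 kb bins of the mouse autosomes that were late (L) in replication timing (RT) in both B cell maps and early (E) in the map of mouse embryonic fibroblasts (MEFs). They were chosen by these measured states, and numbered 1178 of the 120754 autosomal bins with a state in all 3 maps, or 0.976% (Wilson 95% interval 0.922 to 1.03%). Adjacent bins merged into 80 runs, which lay on all 19 autosomes and totalled 23.6 Mb. Protein-coding genes starting in them numbered 97, or 0.453% of the 21418 with a state in all maps. Among them were *Col3a1*, *Col5a2*, *Postn* and *Prrx1*, which are textbook genes of fibroblasts and mesenchyme. These were 4 of 30 listed fibroblast markers, of which 6 others were E in all 3 maps. Because the bins were chosen by their states, the states themselves are a description and no finding.

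In Repli-seq, cells take up BrdU while they copy their DNA, are sorted by DNA content into early S and late S phase, and the BrdU-labelled DNA of each fraction is sequenced. The series held 36 libraries in 7 groups, of which 8 libraries underlie the B cell maps. The CH12 map came from 4 libraries (2 replicates of each fraction) of CH12, a line of murine B lymphoma cells kept as clone F3, which carried the control shRNA against LacZ (shLacZ) and were stimulated through IL4, CD40 and TGF beta. The primary B map came from 4 libraries (2 replicates of each fraction) of wild type (WT) activated splenic B cells. The study's *Rif1*+/+ mice were kept on a C57BL/6 background. The labels repeat the CH12 culture conditions for the primary cells, and the age of the mice is not given in the sources used here. The labels tie the MEF WT map to no sample of the series, and the study credits its fibroblast Repli-seq to an earlier public data set, so cell type and a separate origin cannot be told apart. The other 5 groups, with *Rif1* knockout or *Mcm6* depletion, were not analysed here. The authors pooled replicates ahead of state calling, which leaves a single map for each cell type, so values carry no replicate error and no test between maps was possible. Read depth is unknown from the maps, and intervals cover counting over bins only, whose neighbours are not independent.

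DNA is copied in a set order in S phase, in large domains. Gene-rich, active chromatin is usually copied early, and gene-poor, compact chromatin at the nuclear periphery late. Some domains change their timing between cell types, and domains that hold silent developmental genes are known to be late in cells that do not use them. Fibroblasts are the connective tissue cells that secrete collagens and other matrix proteins, whereas B cells make little of these.

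The cell type names of the maps were set against marker genes. All 47 of the listed B cell genes started in E bins in primary B cells, compared with 38 in CH12 and 31 in the MEF map. Over all coding genes, 59.2% started in E bins in primary B cells, 51.8% in CH12 and 61.1% in the MEF map. The share of the B cell list in the MEF map, 66.0%, was thus close to that of all coding genes. Of 30 fibroblast markers, 23 started in E bins in the MEF map and 0 in L bins. In CH12, 6 of these markers were E and 14 were L, and in primary B cells 10 were E and 7 were L. The E share of the fibroblast markers was above that of all coding genes in the MEF map and below it in both B maps. The state numbers in the files carry no names, and the M (middle) state was recognised because it alone touched both others. Of the other states, the one with more protein-coding starts was named E, with 16.1 starts per Mb in the MEF map against 3.34 in L, and 2.93 per Mb in the L state of primary B cells.

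The promoters of 4 genes are shown because they range from CpG-free to CpG-rich, and were picked after their values were seen. Each is the 250 bases before the annotated gene start in the mm9 genome, read 5′ to 3′ on the strand of the gene, in lower case with each CpG dinucleotide in capitals. None of these windows overlapped another annotated gene. *Col3a1* encodes the chain of collagen III (chr1:45368133-45368382, plus strand). *Postn* encodes periostin, a secreted matrix protein (chr3:54164781-54165030, plus strand). *Prrx1* encodes a homeodomain transcription factor of limb and craniofacial mesenchyme (chr1:165243842-165244091, minus strand). *Gli2* encodes a transcription factor of Hedgehog signalling (chr1:120950197-120950446, minus strand).
Col3a1: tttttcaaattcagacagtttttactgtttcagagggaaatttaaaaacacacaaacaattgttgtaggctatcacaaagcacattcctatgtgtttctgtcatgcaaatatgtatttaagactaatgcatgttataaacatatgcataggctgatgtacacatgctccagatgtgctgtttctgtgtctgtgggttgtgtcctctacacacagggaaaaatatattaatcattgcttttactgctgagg
Postn: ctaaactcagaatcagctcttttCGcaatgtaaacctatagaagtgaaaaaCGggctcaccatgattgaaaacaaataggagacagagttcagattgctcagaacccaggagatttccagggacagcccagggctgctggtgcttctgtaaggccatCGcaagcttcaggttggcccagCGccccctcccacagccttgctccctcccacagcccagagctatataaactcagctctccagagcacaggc
Prrx1: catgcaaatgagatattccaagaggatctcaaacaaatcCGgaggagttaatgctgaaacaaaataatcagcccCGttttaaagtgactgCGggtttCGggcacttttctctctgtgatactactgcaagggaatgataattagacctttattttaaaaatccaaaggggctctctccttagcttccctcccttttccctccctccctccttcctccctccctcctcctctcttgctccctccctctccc
Gli2: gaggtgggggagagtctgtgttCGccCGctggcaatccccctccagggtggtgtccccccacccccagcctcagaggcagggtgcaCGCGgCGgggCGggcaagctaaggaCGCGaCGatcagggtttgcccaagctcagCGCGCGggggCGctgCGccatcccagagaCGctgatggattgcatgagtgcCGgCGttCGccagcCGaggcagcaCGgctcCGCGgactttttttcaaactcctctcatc
The *Col3a1* window held 0 CpGs and had a GC content of 35.2%. The *Postn* and *Prrx1* windows held 4 CpGs each, at 52.0% and 46.8% GC. The *Gli2* window held 22 CpGs at 67.2% GC.

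Regions late in both B cell maps were seldom early in fibroblasts. Of the 44240 autosomal bins that were L in both B maps, 67.2% were also L in the MEF map (Wilson 95% interval 66.8 to 67.7%), 30.1% were M (29.7 to 30.5%) and 2.66% were E (2.52 to 2.82%). Of the 40546 bins that were E in the MEF map, 2.91% were L in both B maps (2.75 to 3.07%). Taking the B maps separately, CH12 was L in 3856 of the MEF E bins, or 9.51% (9.23 to 9.80%), and primary B cells in 1291, or 3.18% (3.02 to 3.36%). Of these 1291 primary B L bins, 1178 were L in CH12 too, and the other 113 were M there. Over all 46011 autosomal L bins of primary B cells, 44240 were L in CH12, which is a larger share. A further 2419 bins were L in CH12, M in primary B cells and E in the MEF map.

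The opposite combination, E in both B maps and L in the MEF map, had 41 bins, or 0.0340% of the autosomal bins (0.0250 to 0.0461%). There were 28.7 times as many bins late in the B maps and early in fibroblasts, or 77.4 times as many (542 and 7) once bins within 100 kb of a state change in any map were left out. The MEF map had more E bins on autosomes (40565) than the CH12 (29295) or primary B map (35883), and RT values at the limits between states are not in the files, so this ratio was not tested.

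The bins were spread unevenly over chromosomes. Chromosome 1 held 214 of them in 11 runs, or 2.21% of its bins, chromosome 3 held 155 in 9 runs (1.98%), and chromosome 13 held 95 in 7 runs (1.62%). These 3 chromosomes held 39.4% of the total. At the other end, chromosomes 10 and 11 held 4 bins each, and chromosome 12 held 2, or 0.0338% of its bins. The median over 19 autosomes was 0.906%. Of the bins late in both B maps, 5.45% were E in the MEF map on chromosome 1, compared with 0.170% on chromosome 10. The value for chromosome 10 rests on 4 bins in 1 run. Whether the differences between chromosomes follow the amount of B cell late DNA was not tested.

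**Figure D1:**
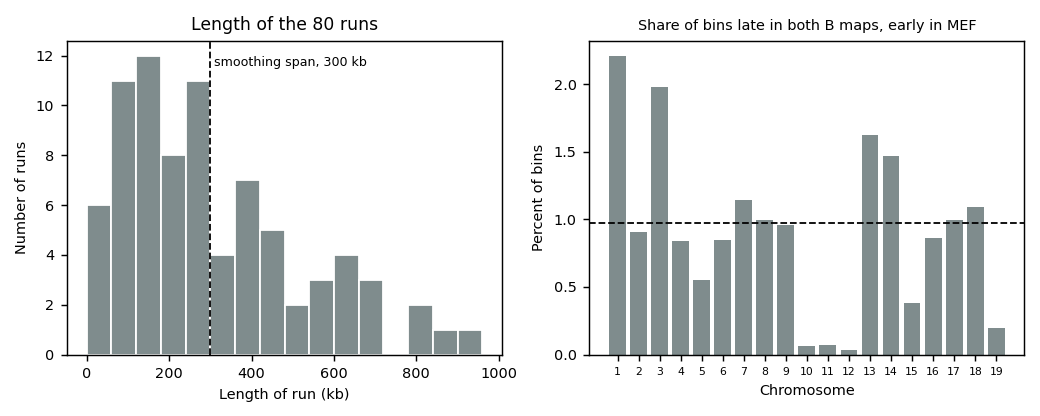
Left, lengths in kb of the 80 runs of bins late in both B maps and early in MEFs, in steps of 60 kb, with the smoothing span of 300 kb as a dashed line. Right, these bins as a percent of the bins of each autosome with a state in all 3 maps, with the value over all autosomes (0.976%) as a dashed line. Chromosomes 1, 3 and 13 stand highest and chromosomes 10, 11 and 12 lowest.

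Runs had a median length of 240 kb, with quartiles of 120 and 420 kb and extremes of 20 and 900 kb. The authors smoothed RT with a span of 300 kb. Runs of at least that length numbered 32 and held 827 bins, or 70.2% of the total. The other 48 runs were shorter than the span, 4 of them only 1 bin long.

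No E and L state touched in any map. A bin just outside a run could therefore differ by only 1 step of state per map. Of the 160 run ends, 77 lay at a bin that stayed L in both B maps and became M in the MEF map. A further 67 lay at a bin that was M in primary B cells only, 11 at a bin that was M in CH12 only, and 5 at a bin that was M in both B maps, with the MEF map still E. For the same reason, no run end could lie next to a bin L in all 3 maps. The primary B map thus limited the runs more often than the CH12 map. Of the 80 runs, 60 touched a primary B bin that was not L, compared with 16 for CH12. Primary B cells also had fewer L bins over all autosomes (46011) than CH12 (60169). The part of this difference in the counts of runs was not tested.

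The runs were usually parts of larger domains. They fell into 77 of the 567 autosomal E domains of the MEF map, took a median of 26.0% of such a domain, and these MEF domains had a median length of 980 kb. Over the runs, the median length of the L domain around them was 1910 kb for CH12 and 930 kb for primary B cells. The MEF E domain contained no E bin of either B map for 46 runs, in 43 domains. The nearest E bin of the same map lay a median of 1110 kb away in CH12 and 740 kb away in primary B cells, and up to 8180 kb and 4620 kb away.

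The longest run covered 900 kb on chromosome 4 (chr4:63940001-64840000). Its only protein-coding start was that of *Pappa*, which encodes a secreted metalloproteinase that cleaves insulin-like growth factor binding proteins. Late domains of 9400 kb in CH12 and 2440 kb in primary B cells held the run, within a MEF E domain of 2920 kb. Its left end was set by the primary B map and its right end by the MEF map.

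On chromosome 3, a run of 840 kb (chr3:54760001-55600000) held 6 protein-coding starts, the first 4 of which were *Ccna1*, a cyclin of the germline, *Spg20*, *A730037C10Rik* and *Sohlh2*, a germ cell transcription factor. Its MEF E domain of 1480 kb also held the *Postn* run. That run was 120 kb long (chr3:54120001-54240000) and took 8.11% of the domain, which had no E bin in either B map. On chromosome 7, a run of 820 kb (chr7:141160001-141980000) held the starts of *Adam12*, a membrane-anchored metalloproteinase of mesenchymal cells, *D7Ertd443e* and *Dock1*, an activator of Rac in cell migration.

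On chromosome 16, *Adamts1* and *Adamts5*, secreted proteases of the matrix proteoglycans aggrecan and versican, were the only coding starts in a run of 800 kb (chr16:85740001-86540000). This run filled its whole MEF E domain. In the B maps it lay inside L domains of 2180 kb (CH12) and 1840 kb (primary B cells), with at least 460 kb of L on each side.

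On chromosome 17, a run of 680 kb (chr17:14000001-14680000) held the starts of *Smoc2*, a secreted calcium-binding matrix protein, *Dact2*, a modulator of Wnt and TGF beta signalling, and *Gm7168*, *Gm7356* and *Gm7358*. It equalled an entire L domain of the primary B map. On chromosome 1, a run of 660 kb (chr1:90760001-91420000) held the starts of *Sh3bp4* and *Agap1*, regulators of endocytic traffic. Most of *Agap1*, which is 440 kb long, lay beyond the end of the run. A second run of 660 kb on chromosome 3 (chr3:144540001-145200000) held 7 starts, the most of any run. They included *Col24a1* at one end, and *Gm6289*, *AI747448*, *Clca6* and *Clca3*, of which the Clca genes encode secreted chloride channel regulators of epithelia.

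*Col3a1* and *Col5a2*, chains of the fibrillar collagens III and V that assemble into the same fibrils, were the only coding starts in a run of 620 kb on chromosome 1 (chr1:45200001-45820000). *Col3a1* (chr1:45368383-45406551, plus strand) and *Col5a2* (chr1:45431166-45560127, minus strand) lay tail to tail, and each lay in the run over its full length. The run took 73.8% of a MEF E domain of 840 kb that had 0 E bins in either B map. Late domains of 7700 kb in CH12 and 1260 kb in primary B cells held it. The nearest E bin was 6260 kb away in CH12 and 900 kb away in primary B cells.

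*Prrx1* (chr1:165175247-165243841, minus strand) shared a run of 620 kb (chr1:164880001-165500000) with *4921528O07Rik* and *Gorab*, a Golgi protein. This run sat in another setting. Its MEF E domain was 3640 kb long, of whose 182 bins the run took 31, and 120 were E in at least 1 B map. The run equalled a primary B L domain, so primary B cells had a late stretch of 620 kb within a region that was otherwise early or middle. The nearest E bins were 300 kb away in CH12 and 320 kb away in primary B cells.

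A pair of runs of 600 kb followed, tied in length. One on chromosome 14 (chr14:23420001-24020000) held no protein-coding start and filled its MEF E domain. The other, on chromosome 18 (chr18:62980001-63580000), held the starts of *Apcdd1*, a Wnt inhibitor, *Napg*, a vesicle fusion protein, and *Fam38b*, an older symbol of *Piezo2*, a mechanosensitive ion channel.

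**Figure D2:**
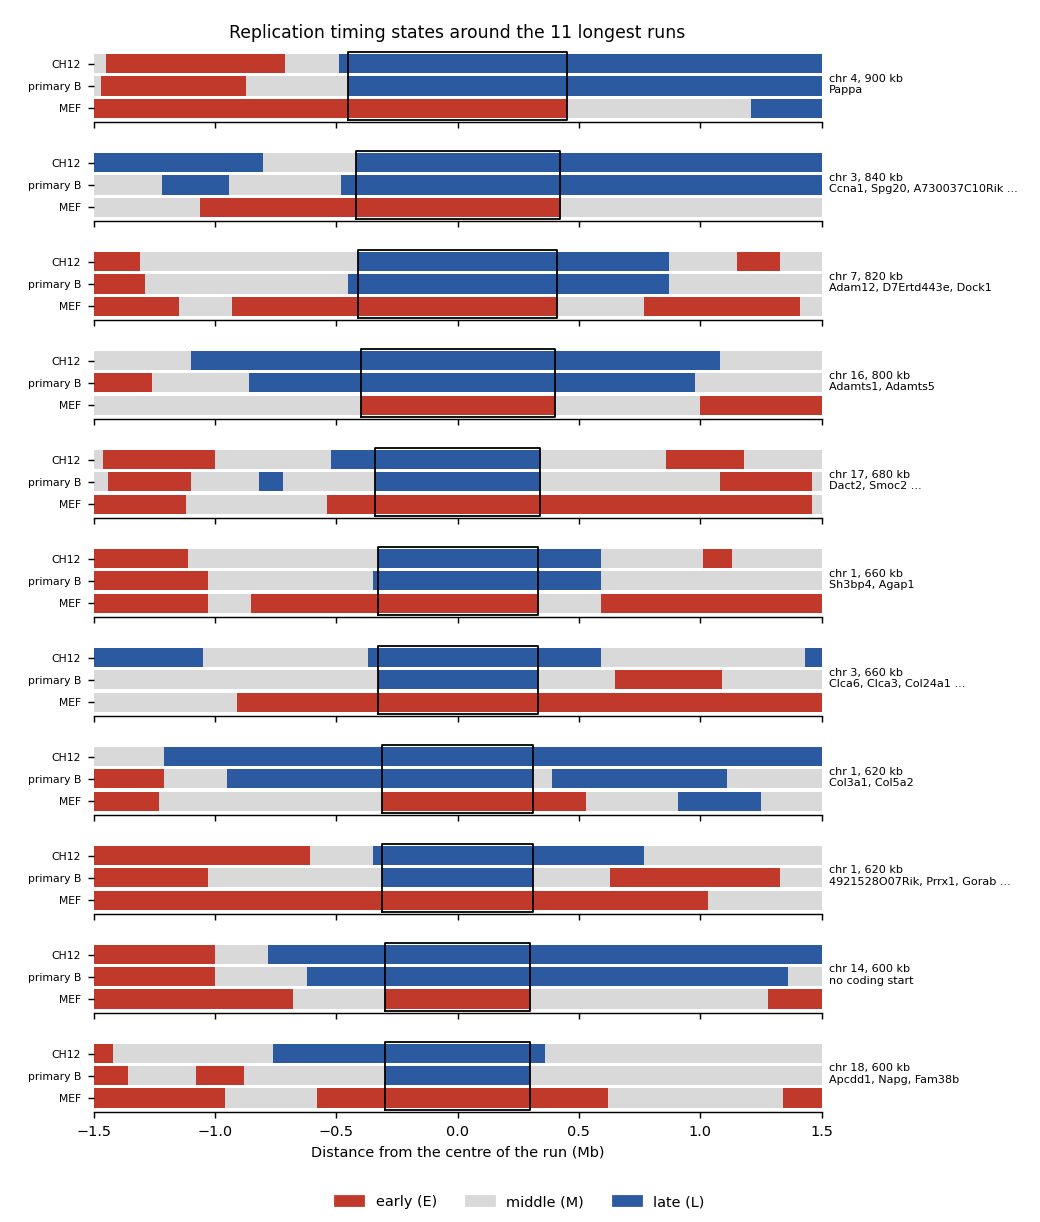
States of the CH12, primary B and MEF maps in 20 kb bins around the 11 longest runs, against the distance in Mb from the centre of each run. Red is early, grey middle and blue late, the black frame marks the run, and up to 3 of the genes with a coding start in it are named. The *Adamts1* and *Adamts5* run and the run on chromosome 14 are red islands in the MEF map with blue on both sides in the B maps, while the *Prrx1* run is a blue stretch where the MEF map is red on both sides of the run.

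Islands such as that of *Adamts1* were a minority. In 11 of the 80 runs the run and the MEF E domain were the same interval, so that the whole domain was L in both B maps. The longest after chromosomes 16 and 14 was a run of 580 kb on chromosome 2 (chr2:109600001-110180000) with the starts of *Lin7c*, *Lgr4*, *Ccdc34* and *Bbox1*. It lay in L domains of 6320 kb in CH12 and 6040 kb in primary B cells, and the nearest E bins were 2040 kb and 1880 kb away. *Lgr4* encodes a receptor for R-spondins, which enhance Wnt signalling. An island of 260 kb on chromosome 13 (chr13:70740001-71000000) held *Adamts16*, a further secreted metalloproteinase, in L domains of 1280 kb and 3120 kb. A further island of 300 kb, named after its values were seen, held the start of *Plcb4*, a phospholipase C.

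Gene content was low and the genes were long. The 97 protein-coding starts were 0.453% of the 21418 with a state in all maps, while the bins were 0.976% of all bins. The density was 4.12 starts per Mb, compared with 8.87 over all bins, 3.15 in bins L in both B maps and M in the MEF map, 2.78 in bins L in all 3 maps, and 21.0 in bins E in all 3 maps. In gene density these regions were therefore near the late classes, although the MEF map had them early. Coding genes starting in them had a median length of 35.6 kb (quartiles 12.8 and 118 kb), compared with 15.5 kb over all. The median was 2.66 kb in bins L in all 3 maps and 15.2 kb in bins E in all 3. In bins L in both B maps and M in the MEF map it was 17.2 kb (quartiles 3.04 and 108 kb). Genes over 100 kb were 29 of the 97, or 29.9%, compared with 10.6% over all coding genes, 26.0% where the MEF map was M, and 12.3% where it was L. These lengths had no part in the choice of bins, and the comparison is a description without a test.

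Of the 80 runs, 51 held at least 1 coding start and 29 held none, of which 26 were shorter than 300 kb. No coding gene overlapped 15 of the runs at all. Counting all annotated gene types, 175 genes started in these bins, including 23 processed transcripts, 15 pseudogenes, 13 snRNAs, 9 miRNAs and 8 lincRNAs. Protein-coding genes were 55.4% of the starts, compared with 61.8% over all bins and 47.4% in bins L in all 3 maps.

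A larger share of listed connective tissue and signalling genes than of all coding genes started in the regions. Lists were chosen with earlier results of these data known, so the shares are a description with no test. Of 30 fibroblast markers, 4 (13.3%) started in the regions, which were *Col3a1*, *Col5a2*, *Postn* and *Prrx1*. Of 42 collagen genes it was 3 (7.14%), and of 132 other genes of matrix proteins and matrix enzymes 6 (4.55%). The shares were 3 of 83 growth factor and morphogen receptors (3.61%), 4 of 142 secreted growth factors and antagonists (2.82%), 1 of 52 contractile and cytoskeletal genes (1.92%), 2 of 111 transcription factors of mesenchyme, skeleton and heart (1.80%), 1 of 70 guidance genes (1.43%) and 1 of 111 synaptic genes (0.901%). The value for all coding genes was 0.453%. These lists overlap. The union of 7 lists of connective tissue and signalling genes, which leaves out the guidance and synaptic lists, had 19 of 563 genes in the regions (3.37%). Bins L in both B maps and M in the MEF map held 61 of the 563 genes and 3 of the 30 fibroblast markers. For all 21418 coding genes it was 838, a smaller share, so a raised share was not particular to the regions. Most of the 563 genes were elsewhere, and 200 of them started in bins E in all 3 maps. That is a smaller share than the 9804 of all 21418 coding genes.

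Among collagens, *Col3a1*, *Col5a2* and *Col24a1*, a fibrillar collagen chain of bone and cornea, were in the regions. Of the other 39, 13 were E in all 3 maps, 2 were L in both B maps and M in the MEF map, and 0 were L in all 3. A total of 33 of the 42 collagen genes were E in the MEF map, compared with 14 in CH12 and 17 in primary B cells. *Col24a1* (chr3:144955436-145214975, plus strand) was 260 kb long and ran out of its run at the far end.

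The matrix genes were mostly proteases. *Adam12*, *Adamts1*, *Adamts5* and *Adamts16* encode metalloproteinases, and *Smoc2* and *Postn* encode secreted matrix proteins. *Adamts1* and *Adamts5* were neighbours and are related in sequence, so they are not independent cases. A further 16 of the 132 matrix genes were L in both B maps and M in the MEF map, and 1 was L in all 3. For all 21418 coding genes these counts were 838 and 1655.

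The transcription factors were *Prrx1* and *Gli2*. *Gli2* (chr1:120730709-120950196, minus strand) started in a run of 360 kb (chr1:120780001-121140000), and the part of the gene nearest its end lay outside the run. The L domains there were short, 460 kb in CH12 and 440 kb in primary B cells, in a MEF E domain of 1380 kb. Of the 111 factors listed, 18 were L in both B maps and M in the MEF map, and 2 were in the regions. The counts over all coding genes were 838 and 97, so the first class was the larger there too.

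Secreted ligands were *Inhba*, the beta A subunit of activins, *Dkk2*, a Wnt antagonist, and *Ereg* and *Areg*, ligands of the EGF receptor. *Ereg* and *Areg* are adjacent genes of 1 family and shared a run of 380 kb on chromosome 5 (chr5:91400001-91780000), together with *Epgn*, a further ligand of that receptor that was on no list. *Inhba* lay in a run of 420 kb on chromosome 13 (chr13:15740001-16160000) that took 77.8% of its MEF E domain. *Dkk2* (chr3:131748256-131843257, plus strand) started in a run of 380 kb on chromosome 3 (chr3:131420001-131800000) and ran out of it at the far end.

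Receptors were *Lgr4*, *Ghr*, the growth hormone receptor, and *Pdgfrl*, a secreted protein related to the PDGF receptor. *Ghr* and *Pdgfrl* were in short runs of 140 kb (chr15:3500001-3640000) and 160 kb (chr8:41960001-42120000). Most of the *Ghr* gene, which is 266 kb long, lay outside its run. *Palld*, an actin-bundling protein of stress fibres, started in a run of 240 kb (chr8:64200001-64440000). *Ncam1*, a neural cell adhesion molecule, started in a run of 440 kb (chr9:49460001-49900000). *Ephb1*, an ephrin receptor, started in a run of 1 bin (chr9:102240001-102260000), so its call rests on 20 kb within a smoothed profile.

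Of the 97 genes, 21 were on a list and 76 were on none. Among the latter, named after their values were seen, were the neighbours *Pla2g4a* and *Ptgs2* in a run of 480 kb on chromosome 1, which encode the phospholipase that frees arachidonic acid and the inducible cyclooxygenase that converts it to prostaglandins. *Spry2*, a feedback inhibitor of receptor tyrosine kinase signalling, started in a run of 560 kb on chromosome 14, and *Dlc1*, a GTPase-activating protein, in a run of 580 kb on chromosome 8.

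None of the 47 B cell genes and none of the 56 marker genes of T cells, NK cells, myeloid and erythroid cells started in them, compared with 0.453% of all coding genes. Given these list sizes, a share equal to that of all genes would also give counts near 0. None of the B cell genes was L in both B maps, and 1 gene of the other blood list was. The counts were also 0 of 1106 olfactory receptor, 0 of 329 vomeronasal receptor, 0 of 97 keratin, 0 of 39 Hox and 0 of 358 Zfp genes. For keratin and Hox genes, too, the share of all genes would give counts near 0, and for vomeronasal receptor and Zfp genes small counts. Other families with adjacent copies did have members in the regions, such as the Clca genes. The MEF map had all 39 Hox genes in E bins, but 0 of them were L in both B maps, and 532 olfactory receptor genes were L in all 3 maps. Cadherins had 0 of 47 genes in the regions and 18 in bins L in all 3 maps. For a list of 47 genes the share of all genes would again give a count near 0.

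**Figure D3:**
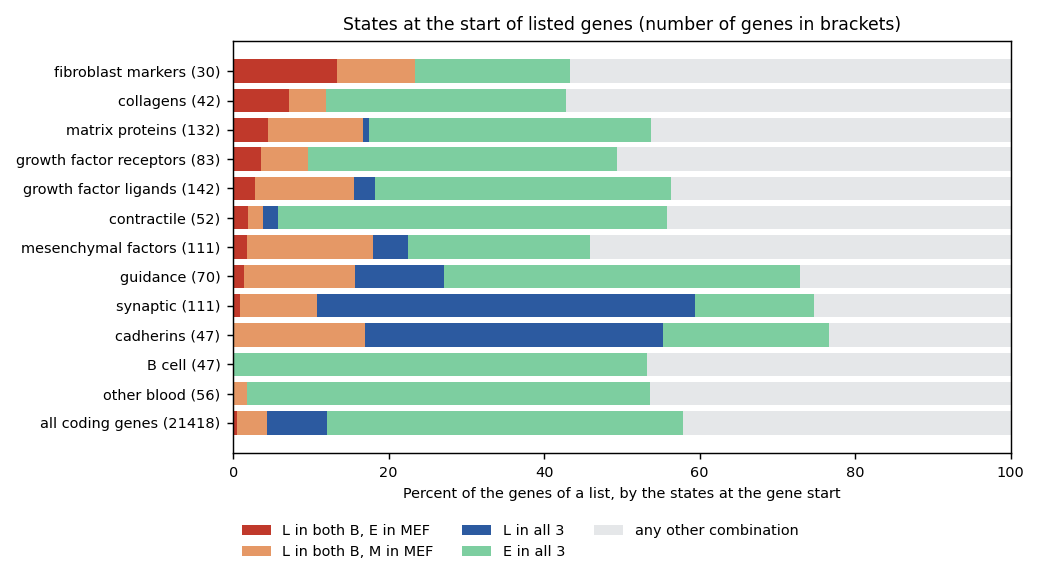
Percent of the genes of each list by the states of the CH12, primary B and MEF maps at the gene start, with the number of genes in brackets. Red marks L in both B maps and E in MEF, which takes 13.3% of fibroblast markers, 7.14% of collagens and 0.453% of all coding genes, while synaptic genes and cadherins lie mostly in bins L in all 3 maps or E in all 3.

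Base composition of the regions lay between that of late and early classes and was close to that of all bins. The median GC content of the 1178 bins was 41.3% (quartiles 39.5 and 43.6%), compared with 41.4% (38.7 to 44.7%) over all bins. It was 39.9% (38.4 to 41.7%) in bins L in both B maps and M in the MEF map, 37.9% (36.6 to 39.4%) in bins L in all 3 maps, and 46.2% (43.6 to 49.1%) in bins E in all 3. Among bins late in both B maps, GC content thus rose with earlier timing in the MEF map, and the quartile ranges of the regions and of bins L in all 3 maps did not overlap. These ranges came close, with a lower quartile of 39.5% in the regions and an upper quartile of 39.4% in bins L in all 3. Over the 80 runs GC content ranged from 36.7% to 50.9%, with a median of 41.3%. The *Col3a1* and *Col5a2* run was at 38.0% and the *Adamts1* and *Adamts5* run at 38.1%, near bins L in all 3 maps. The *Sh3bp4* and *Agap1* run was at 46.4%, near bins E in all 3.

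Within a MEF E domain, the late part tended to have lower GC content than the rest. In the 50 of 77 domains with at least 5 bins of each kind, the GC content was lower in the regions in 35 and higher in 15, with a median difference of -0.987 percentage points (quartiles -2.20 and 0.576). Within the L domains of the B maps the difference was the other way, with 34 of 59 CH12 domains and 31 of 47 primary B domains having a higher GC content in the regions. The medians there were 0.392 and 0.554 percentage points. The quartile range included 0 in each of these comparisons.

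The CpG ratio, which divides the observed number of CpG dinucleotides by that expected from C and G content, followed the same order. Its median was 0.175 in the regions (quartiles 0.147 and 0.207), 0.176 over all bins, 0.160 in bins L in both B maps and M in the MEF map, 0.137 in bins L in all 3 maps and 0.220 in bins E in all 3. The 41 bins of the opposite combination had a GC content close to that of the regions (41.1%) and a lower CpG ratio (0.145).

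**Figure D4:**
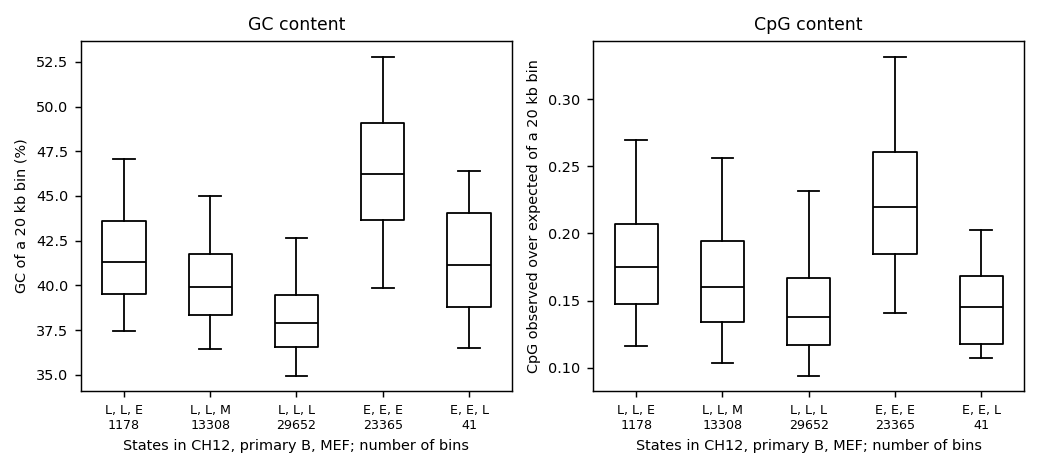
GC content in percent (left) and CpG ratio (right) of 20 kb bins by their states in CH12, primary B and MEF, with the number of bins under each box. Boxes span the quartiles with the median as a line, and whiskers reach the 5th and 95th percentiles. The regions (L, L, E) lie above the other classes that are late in both B maps and below bins E in all 3 maps.

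Short motifs of factors active in fibroblasts and blood cells were counted on both strands. The AP-1 motif TGANTCA occurred 6.88 times per 20 kb in the regions, 6.66 times in bins L in both B maps and M in the MEF map, 6.46 in bins L in all 3 maps and 6.06 in bins E in all 3. Divided by the number expected from base composition, the values were 1.10, 1.03, 0.971 and 1.09. Over all bins the AP-1 motif occurred 6.37 times per 20 kb, with a ratio of 1.02. The TEAD motif CATTCC occurred 12.5 times per 20 kb (ratio to expected 1.40), against 11.8 (1.31) over all bins, 12.3 (1.42) in bins L in both B maps and M in the MEF map, 12.1 (1.47) in bins L in all 3 maps, with a ratio of 1.14 in bins E in all 3. The ETS motif GAGGAA occurred 22.2 times (2.47), against 21.5 (2.38) over all bins and 21.7 (2.50), 21.1 (2.56) and 20.8 (2.17) in the same 3 classes. For both motifs the ratio to expected in the regions was thus above that of all bins and below that of the other classes late in both B maps. These motifs are short, and a match is no binding site.

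Promoters of the 97 genes were set beside those of all coding genes over 250 bases before to 50 bases after the start. The median CpG ratio was 0.482 (quartiles 0.263 and 0.722), compared with 0.544 over all, 0.673 in bins E in all 3 maps, 0.317 in bins L in both B maps and M in the MEF map, and 0.149 in bins L in all 3. A ratio above 0.6, as in CpG islands, was found in 36 of the 97 (37.1%), compared with 45.9% over all and 11.3% in bins L in all 3 maps. Genes with such promoters included *Gli2*, *Spry2* and *Areg*, whereas *Col3a1*, *Postn* and *Prrx1*, shown above by their sequences, were below it. The letters TATAAA on either strand were found in 23 of the 97 promoters (23.7%), against 13.5% over all and 33.7% in bins L in all 3 maps. TGANTCA was found in 5 (5.15%), against 6.93% over all.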

How the data were processed

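According to the methods and the submitters' processing notes, the authors trimmed Repli-seq reads with Trim Galore 0.6.5, aligned them to mm9 with BWA 0.7.17, kept unique alignments with SAMtools 1.9, merged replicates and removed duplicates. With deepTools they took early over late reads as a log2 ratio per 20 kb window, smoothed it over a span of 300 kb and segmented it into 3 hidden Markov states. The deposited domain maps give domain intervals with a state number, without RT values. Smoothing blurs domain edges, unique alignment removes repeats, and merging removes replicate spread. How replicates and depth stood in the MEF map is not given in the sources used here.

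Domains were assigned to the 123624 autosomal bins, of which the 2870 without a primary B state were left out. Genes and sequences came from GENCODE M1 and the NCBIM37 genome, the same build, and genes were assigned to the bin of their 5′ end. Named genes were the first 4 coding starts in each of the 10 longest runs, all members of the collagen, fibroblast and B cell lists, and up to 5 of each other list. Some items that this rule names are not reported here. The regions and lists were chosen with earlier results of these data known. Intervals are Wilson 95% intervals. The functions were tested on simulated data. Alternatives are given in the closing section. The software was matplotlib 3.10.9, scipy 1.17.1, pandas 2.3.3 and numpy 2.4.6 under Python 3.11.15.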

Additional observations from a re-analysis of the deposited data

How the results depend on the processing

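The alternatives gave 60 values for 27 results. Of these values, 46 stayed within the interval, 1 SD or 1.5 times of the reported value and 14 did not. Not all of the 46 could have moved. List counts of 0 could not change when bins near state changes were removed. No bin of the regions was made wholly of unknown bases, so their number could not change when such bins were left out. For GC content, 1 SD was a wide limit. This SD exceeded the gap between the regions (median 41.3%) and bins L in both B maps and M in the MEF map (39.9%). The count of 46 alone is therefore no measure of stability. With every bin less than 100 kb from a state change in any map removed, 542 of the regions' bins remained, or 0.755% of the bins then left. Of the opposite combination 7 bins remained. Of the coding starts 42 remained, with 3 collagens and 3 fibroblast markers. Leaving out unknown bases or the first 3 Mb of each chromosome, or counting base pairs, moved no share outside its interval. Joining runs across up to 40 kb gave 80 runs. Runs of at least 300 kb numbered 32, with a median of 470 kb. All gene types gave 175 starts, or 7.43 per Mb. Of the list counts, 7 of 34 changed by over 1.5 times, each a count of 6 or fewer, such as 5 mesenchymal factors by gene body overlap and 3 matrix genes away from boundaries. The order of GC content among bins late in both B maps held away from boundaries (41.2, 39.7 and 37.7%) and outside exons and gene starts (41.2, 39.8 and 37.9%). No paired analysis was possible because each cell type had 1 map, made from pooled replicates. Depth and the RT values at the limits between states are unknown from the maps, so their part in any count was not tested.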

Other observations

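The opposite combination, E in both B maps and L in the MEF map, was made of 5 runs on 5 chromosomes, of which 1 was at least 300 kb long. That run covered 340 kb on chromosome 11 (chr11:24020001-24360000). No coding gene started in it, and the gene body that overlapped it was that of *Bcl11a*, a transcription factor needed for B cell development, whose start lay in a bin E in both B maps and M in the MEF map. The other runs were 180 kb with the starts of *Ostn* and *Uts2d* on chromosome 16, 160 kb with the start of *Bend5* on chromosome 4, 120 kb without a coding gene on chromosome 19, and 20 kb with the start of *Sp100*, a nuclear body protein induced by interferon, on chromosome 1. These 5 runs were few and short, and they are given as values only.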
